A study of Mus musculus with 9 samples.

Results

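The cytochrome P450 (CYP) families 1 to 3 were represented on the liver arrays by 58 genes of 37074 gene names. They were chosen by name alone: every gene name of a non-control probe that begins with Cyp, a family number from 1 to 3, a subfamily letter and a gene number was taken, and 2 names marked as pseudogenes (Cyp2c53-ps and Cyp2d37-ps) were left out. The 58 members had 78 probes, and a member with several probes was represented by the one that was brightest over the 9 arrays. A gene was tested where 1 or more groups had it well above background on each of their 3 arrays, which 29 of the 58 members met, among 5761 genes tested in all.

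CYP enzymes of these families sit in the endoplasmic reticulum and use a heme iron, with electrons passed on by the reductase Por and by cytochrome b5, to oxidise drugs, toxins, steroids, bile acids and fatty acids. In liver they are made mainly by hepatocytes, many of them in the zone around the central vein, and their genes are known targets of nuclear receptors such as CAR, PXR and HNF4A and of the dioxin receptor AhR. Several mouse members are known to differ between the sexes under the control of growth hormone, which acts through STAT5B.

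Livers came from male mice in 3 groups of 3 arrays, all labelled as 12 months of age. The study instead gives 12 months as the time after virus injection for AAV-V and AAV-GP73 livers. AAV-V mice carried an empty adeno-associated virus and ate a normal diet, AAV-GP73 mice carried a virus for GP73, a Golgi protein, and ate a normal diet, and AAV-V HFD mice carried the empty virus and ate a high-fat diet (HFD). All mice had thus received virus, described as hepatocyte-specific, and no group without it or with GP73 and HFD together was analysed here. The comparisons ask what GP73 and HFD, each studied as a cause of fatty liver, share and where they differ. The length of HFD feeding is described differently in the results and methods of the study. Whether an array held a single mouse or a pool is not stated, so that p values measure only the spread between these samples.

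Golm1, the gene of GP73, had 1 probe, which was well above background on 0 of the 9 arrays, so that the labels could not be checked by it. All 10 hepatocyte markers listed, such as Alb, were measured on all arrays of each group. The AAV-V arrays were dimmer than the others: between 10.2% and 10.75% of their spots were well above background, against 16.02% to 18.4% on AAV-GP73 and 13.8% to 16.7% on AAV-V HFD arrays, and the 75th percentile of commonly detected probes was 6.48 to 6.71 on the log2 scale before scaling against 7.61 to 8.35 on the other arrays. After scaling, the lowest signal well above background was 3.77 to 3.94 on AAV-V arrays but 1.85 to 2.81 on the others, so that dim members could be measured in AAV-GP73 and AAV-V HFD livers and not in AAV-V livers. AAV-V and AAV-GP73 arrays shared slide 1 and AAV-V HFD arrays lay on slide 2, so that slide and diet cannot be told apart. By their barcodes the AAV-V arrays lay in column 1 of slide 1 and the AAV-GP73 arrays in column 2. Column and virus can thus not be told apart either, and whole liver RNA cannot tell fewer cells from less RNA per cell.

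The 60-base probes matter here because close paralogs share sequence. By the transcripts the array design lists, named through RefSeq for all but 3 of the members, the probes of 11 members name more than 1 gene. That of Cyp3a41a names Cyp3a41b too, that of Cyp2c37 also Cyp2c50, that of Cyp2a4 also Cyp2a5, and that of Cyp3a11 also Cyp3a41a, Cyp3a41b and Cyp3a44. Between members, 2 pairs of probes were nearly identical: those of Cyp2c67 and Cyp2c68 differed at 4 of 59 aligned bases, and those of Cyp3a25 and Cyp3a57 at 3 of 52. Stretches of 30 bases are shown for these pairs, with the bases that differ in capitals, because their signals may hold RNA of both genes.
Cyp2c67 probe: acAcagtcccagAaattccatctatattcc
Cyp2c68 probe: acCcagtcccagGaattccatctatattcc
Cyp3a25 probe: gtgtcaagagataaacccagaactggaTcA
Cyp3a57 probe: gtgtcaagagataaacccagaactggaCcG
The middle 30 bases follow for the probes of 2 members that differed between AAV-GP73 and AAV-V HFD livers, at chr5:146505792-146505851 (minus strand) for Cyp3a41a and chr7:27918570-27918629 (plus strand) for Cyp2f2, in mm9 coordinates of the whole probe.
Cyp3a41a probe: accatctccatccacatctcattgtctctg
Cyp2f2 probe: gtgaaatacccgtcttatacgcacagaacc

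Promoters, taken as the 200 bases before the start of a gene in RefSeq (GRCm38.p6), were at hand for 25 of the 29 tested members. A nuclear receptor half-site (AGGTCA on either strand) was found in 5 of these 25 and in 14 of all 50 members with a promoter (28.0%), against 11.4% of all 32851 promoters of this length. The HNF1 half-site GTTAAT was in 4 of 50 (8.0%, against 5.06% of all), the AhR core GCGTG in 7 of 50 (14.0%, against 24.7%), and the STAT site TTCNNNGAA in 0 of 50 against 5.49%. A match is a description of these letters and not a binding site. The promoters of Cyp3a25 and Cyp3a57, whose probes are also alike, were 90.1% identical after alignment and held the half-site at 2 places each, in capitals below. Those of Cyp2c50 and Cyp2c37 were 85.4% identical with none of the 4 motifs, and that of Cyp2c29, a member that moved the other way, held 1 half-site. The promoters of Cyp3a41a and Cyp3a41b differed at 1 of 200 bases, so that only Cyp3a41a is shown.
Cyp3a25 promoter, chr5:146009619-146009818, minus strand: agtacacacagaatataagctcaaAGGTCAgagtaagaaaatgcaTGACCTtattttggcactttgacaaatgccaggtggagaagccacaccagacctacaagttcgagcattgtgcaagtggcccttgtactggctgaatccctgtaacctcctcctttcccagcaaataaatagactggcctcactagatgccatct
Cyp3a57 promoter, chr5:145345069-145345268, plus strand: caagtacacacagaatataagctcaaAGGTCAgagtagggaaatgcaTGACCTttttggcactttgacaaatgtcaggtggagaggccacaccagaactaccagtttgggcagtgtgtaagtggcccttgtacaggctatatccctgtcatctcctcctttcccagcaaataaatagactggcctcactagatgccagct
Cyp2c50 promoter, chr19:40089479-40089678, plus strand: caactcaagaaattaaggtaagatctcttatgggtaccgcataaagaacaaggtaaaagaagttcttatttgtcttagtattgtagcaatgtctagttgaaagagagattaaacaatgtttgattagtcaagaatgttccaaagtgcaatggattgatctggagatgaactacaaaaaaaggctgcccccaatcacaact
Cyp2c29 promoter, chr19:39286885-39287084, plus strand: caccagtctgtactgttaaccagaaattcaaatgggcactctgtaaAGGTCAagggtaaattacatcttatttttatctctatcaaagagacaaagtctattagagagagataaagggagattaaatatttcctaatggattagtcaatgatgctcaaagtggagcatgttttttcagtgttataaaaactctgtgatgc
Cyp3a41a promoter, chr5:145720137-145720336, minus strand: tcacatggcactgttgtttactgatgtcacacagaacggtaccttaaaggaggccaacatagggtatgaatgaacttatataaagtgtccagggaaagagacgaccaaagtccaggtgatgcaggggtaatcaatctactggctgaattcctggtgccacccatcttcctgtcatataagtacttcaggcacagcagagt

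All 29 tested members were well above background on all 3 AAV-GP73 arrays, while 21 were on all 3 AAV-V HFD arrays and 14 on all 3 AAV-V arrays. Of the 58 members, 13 were measured on all 9 arrays, 23 on none by the probe that stands for them, and 6 on some arrays without passing. Among the 23, a dimmer probe of Cyp2j9 was above background on 1 AAV-GP73 array. The filter thus passed many members only through AAV-GP73, so that counts over the tested members describe what could be measured and do not stand for the family. Detection differed by subfamily. Of the Cyp2c members 11 of 15 were tested, of Cyp2d 6 of 9, of Cyp2a 3 of 4, of Cyp3a 3 of 8, of Cyp1a 1 of 2 and of Cyp2j 1 of 6, and the single members Cyp2e1, Cyp2f2, Cyp2r1 and Cyp2u1 were tested. None of the 5 Cyp2b members, classical targets of CAR, was well above background on any array, nor were Cyp1a1 and Cyp1b1, targets of AhR, or Cyp2d22. Cyp3a11, the best known PXR target of mouse liver, was above background on 2 of the 9 arrays, both AAV-GP73, at scaled log2 values of 2.54, 1.28 and 2.81 on the 3 AAV-GP73 arrays, and was not tested.

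**Figure D1:**
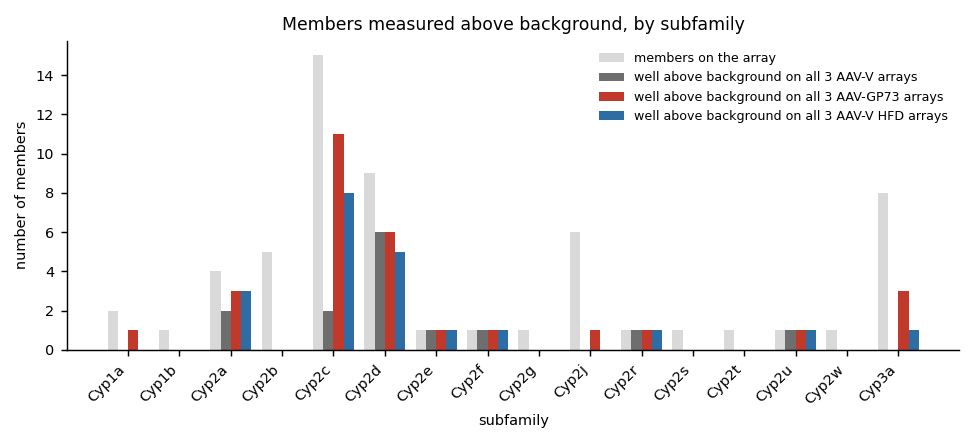
Number of members (y axis) per subfamily (x axis) on the array and, per group, well above background on all 3 arrays. AAV-GP73 arrays measured 11 Cyp2c and 3 Cyp3a members on all 3 arrays where AAV-V arrays measured 2 and 0.

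Against AAV-V, 10 of the 29 tested members (34.5%) passed a fold change of 2 with an adjusted p under 0.05 (limma, Benjamini-Hochberg over all genes tested) in AAV-GP73 livers, 7 higher and 3 lower. One of the 7, Cyp3a57, had AAV-GP73 signals below what AAV-V arrays could measure. Of all genes tested 52.6% were called in this comparison (33.2% higher and 19.4% lower), so that the members' share was below the background. The AAV-V HFD livers had 10 called members (34.5%), of which 3 rose and 7 were called lower (2 of these without being above background in either group), against 43.0% of all genes (24.8% higher and 18.2% lower). Both of these comparisons share their 3 AAV-V arrays. Between AAV-GP73 and AAV-V HFD livers 2 members (6.90%) were called, both higher in AAV-GP73, against 2.52% of all genes (1.96% higher and 0.555% lower). Of these 2, Cyp3a41a had passed the filter through AAV-GP73 alone, which favoured this direction. The median log2 difference from AAV-V was 0.57 over the members tested in AAV-GP73 (0.60 over all genes) and -0.01 in AAV-V HFD (0.37 over all genes), and 0.33 for AAV-GP73 over AAV-V HFD (0.09 over all genes). Arrays did not overlap for 14 members (48.3%) between AAV-GP73 and AAV-V, against 67.6% of all genes, for 11 (37.9%) between AAV-V HFD and AAV-V, against 56.9%, and for 10 (34.5%) between AAV-GP73 and AAV-V HFD, against 24.0%. At an unadjusted p under 0.05 in limma the counts were 13, 13 and 9 members, against 66.2%, 60.5% and 15.9% of all genes.

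**Figure D2:**
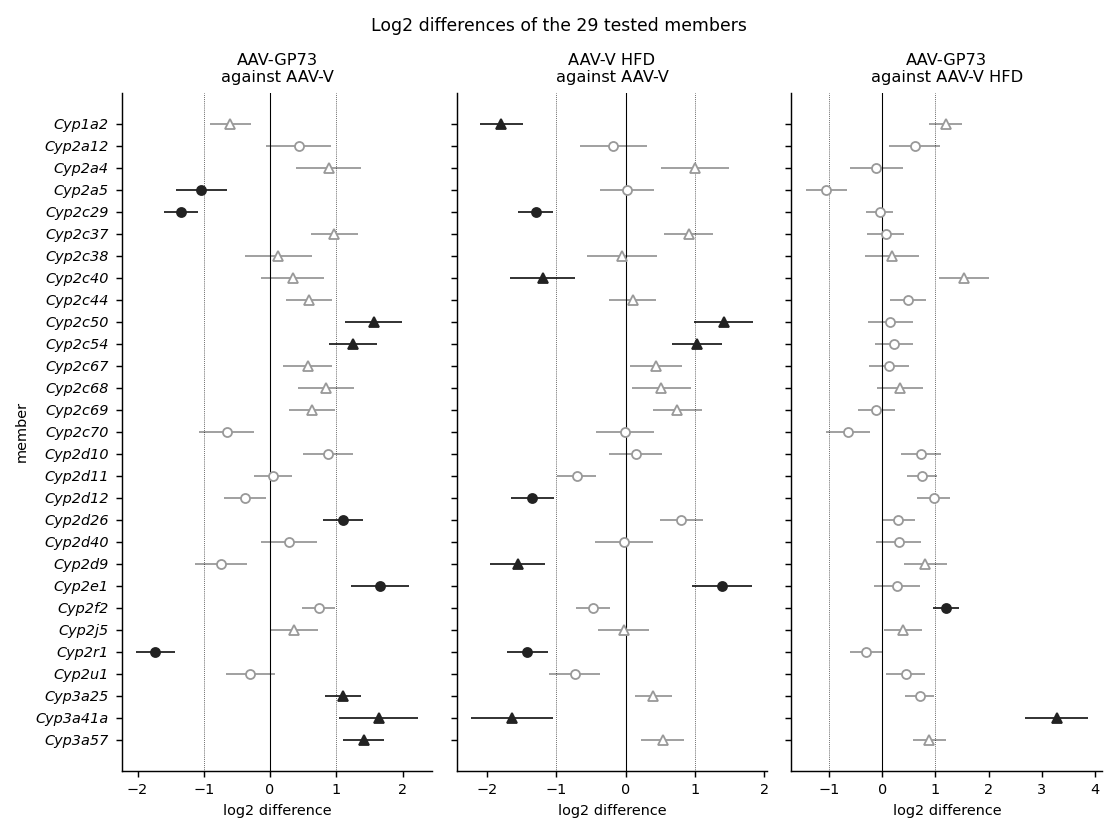
Log2 difference with its standard error (x axis) for each of the 29 tested members (y axis) in the 3 comparisons. Filled symbols mark members called by limma, triangles mark comparisons in which at least 1 group was not well above background on all 3 arrays, and dotted lines mark a fold change of 2. In AAV-GP73 against AAV-V, with the scaling used throughout, 7 filled symbols lie to the right and 3 to the left of 0, and in AAV-V HFD against AAV-V 3 and 7.

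The split into higher and lower members against AAV-V changed with the scaling between arrays. Scaled by the 75th percentile of all non-control probes, which moved the median of all genes from 0.60 to 1.59 in AAV-GP73 and from 0.37 to 1.32 in AAV-V HFD, no member was called lower, while AAV-GP73 had 21 members called higher and AAV-V HFD had 13. Scaled by spike-in spots, 25 and 18 were called higher and again 0 lower. Quantile normalization and the authors' own table each gave 6 higher against 3 lower for AAV-GP73, and 6 against 5 for AAV-V HFD. Taken relative to the median of all genes, 0 members rose, while AAV-GP73 had 6 that fell and AAV-V HFD had 9. Scalings that add 1 constant to each array leave the order of the members' differences as it is. Directions against AAV-V below are those of the scaling by detected probes.

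**Figure D3:**
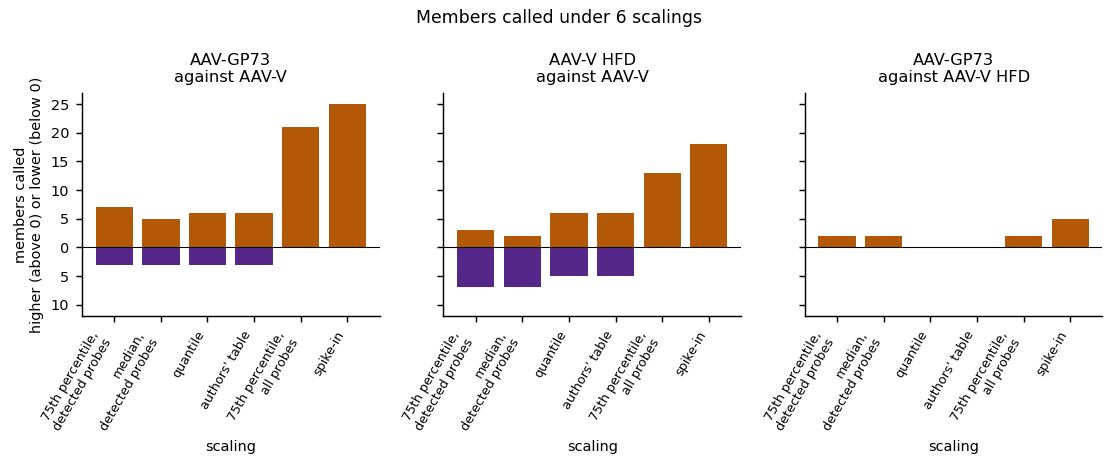
Number of members called higher (above 0) or lower (below 0) on the y axis under 6 scalings of the arrays (x axis), in each comparison. The first 4 scalings gave both higher and lower members against AAV-V, and the last 2 gave 0 lower.

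Cyp2e1, which oxidises ethanol and paracetamol around the central vein, was higher in the livers of both groups than in AAV-V. Its scaled log2 signal was 6.32, 8.46 and 7.15 on AAV-V arrays, 8.76, 9.0 and 9.17 on AAV-GP73 arrays, and 8.59, 8.73 and 8.79 on AAV-V HFD arrays. The AAV-V arrays spread over more than 2 log2 units, and none of them reached the other 2 groups. The log2 difference from AAV-V was 1.66 ± 0.44 (SE, n = 3 against 3, limma adjusted p = 0.00634) in AAV-GP73 and 1.39 ± 0.44 (limma adjusted p = 0.0193) in AAV-V HFD. A second Cyp2e1 probe gave 1.52 and 1.44 (limma adjusted p = 0.00886 and 0.0147 over probes). The AAV-GP73 call held without any 1 array, while in AAV-V HFD it was lost without AAV-V replicate 1 (0.89, limma adjusted p = 0.0651), AAV-V replicate 3 (1.31, 0.0592) or AAV-V HFD replicate 2 (1.38, 0.0513). Both calls were lost by the methods' t-test, before and after Benjamini-Hochberg adjustment. Relative to the median of all genes the differences were 1.07 and 1.02, and neither was called.

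Among the Cyp2c members, many of which oxidise arachidonic acid, called genes ran in both directions. Cyp2c29, an arachidonic acid epoxygenase of pericentral hepatocytes, had scaled log2 signals of 5.93, 6.32 and 6.18 in AAV-V, 4.89, 4.82 and 4.69 in AAV-GP73 and 4.81, 4.64 and 5.08 in AAV-V HFD livers. The AAV-V arrays lay above all others. It fell by 1.35 (SE 0.26, limma adjusted p = 0.000925) in AAV-GP73 and by 1.30 (SE 0.26, limma adjusted p = 0.00187) in AAV-V HFD livers on the log2 scale, and the calls held without any 1 array. With all-probe scaling the differences were -0.35 and -0.35, neither called, and with spike-in scaling 0.34 and 0.04.

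Cyp2c50 had signals of 2.16, 3.89 and 3.32 in AAV-V, 4.44, 4.68 and 4.93 in AAV-GP73 and 4.94, 4.73 and 3.94 in AAV-V HFD livers, and Cyp2c54 3.00, 3.78 and 3.49, then 4.37, 4.82 and 4.83, then 4.71, 4.94 and 3.71. Of the other 2 groups only AAV-V HFD, for Cyp2c54, overlapped AAV-V. Neither was well above background on an AAV-V array, so that only a bound on the fold can be given, against the lowest signal that was well above background there. Cyp2c50 was at least 1.76-fold higher in AAV-GP73 (limma adjusted p = 0.00768) and at least 1.59-fold higher in AAV-V HFD livers (limma adjusted p = 0.0155), and Cyp2c54 at least 1.76-fold (limma adjusted p = 0.00993) and at least 1.51-fold higher (limma adjusted p = 0.0301). The AAV-GP73 calls held without any 1 array. In AAV-V HFD, that of Cyp2c50 was lost without AAV-V replicate 1 (log2 difference 0.93), AAV-V HFD replicate 1 (1.21) or AAV-V HFD replicate 2 (1.32), and that of Cyp2c54 without AAV-V replicate 1 (0.81), AAV-V replicate 3 (1.06), AAV-V HFD replicate 1 (0.90) or AAV-V HFD replicate 2 (0.78). Cyp2c37, whose probe also names Cyp2c50, had log2 differences of 0.97 and 0.91 with limma adjusted p of 0.0325 and 0.0475, under the fold of 2.

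The other 8 tested Cyp2c members were not called in AAV-GP73 against AAV-V, with log2 differences from -0.65 for Cyp2c70, which forms muricholic bile acids, to 0.97 for Cyp2c37. Cyp2c70 was measured on all 9 arrays, at 4.79, 4.23 and 4.23 in AAV-V, 3.82, 4.50 and 2.99 in AAV-GP73 and 4.36, 3.82 and 5.05 in AAV-V HFD livers, and all groups overlapped. Cyp2c38, Cyp2c44, Cyp2c67, Cyp2c68 and Cyp2c69 lay between 0.13 and 0.85 in AAV-GP73 and between -0.05 and 0.75 in AAV-V HFD, and their arrays overlapped those of AAV-V in both. Cyp2c40, a female-biased member, was well above background only on the 3 AAV-GP73 arrays, at 2.60, 3.61 and 2.83. Its call as lower in AAV-V HFD compared groups in which it was not above background, and no change is read from it. Between AAV-GP73 and AAV-V HFD livers no Cyp2c member was called, and the log2 difference of Cyp2c29 was -0.05 ± 0.26.

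**Figure D4:**
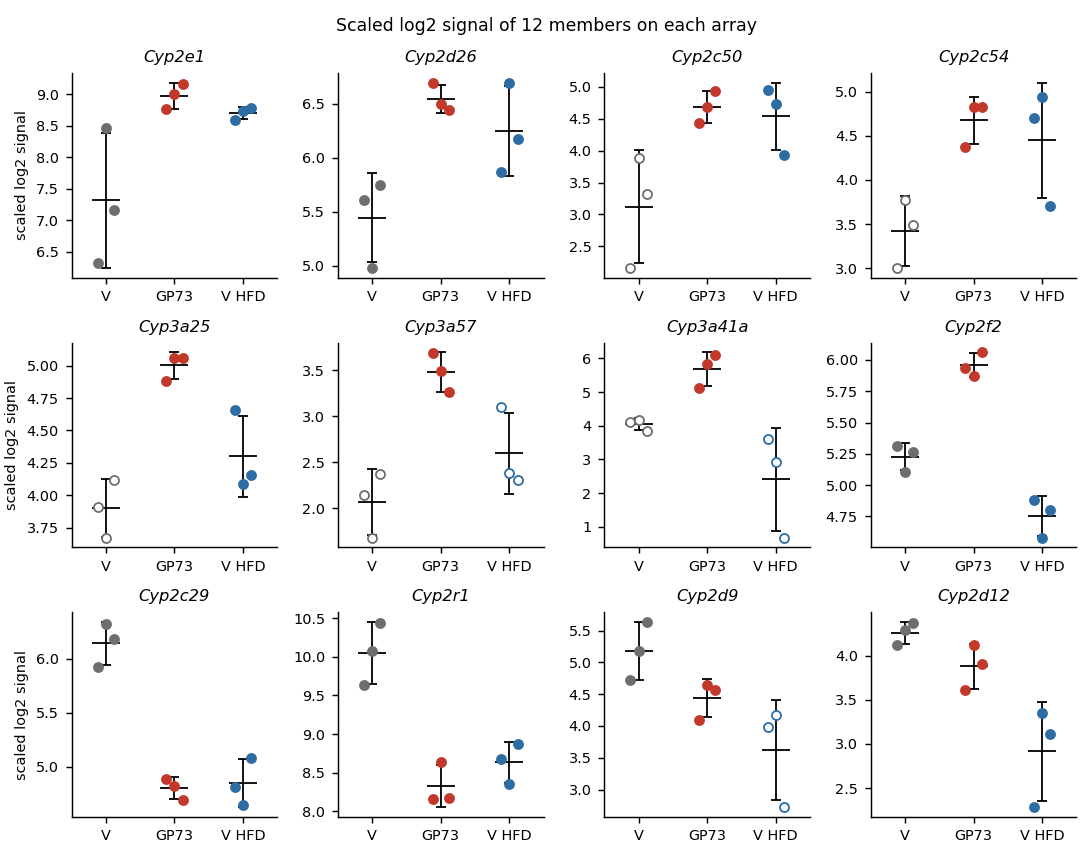
Scaled log2 signal (y axis, a separate range for each gene) of 12 members on each array (points) with group mean and SD (bars, n = 3). Open points mark groups with fewer than 3 arrays well above background. Cyp2c29 and Cyp2r1 lie lower and Cyp2e1 higher on all AAV-GP73 and AAV-V HFD arrays than on any AAV-V array, and Cyp3a41a and Cyp2f2 lie higher on all AAV-GP73 than on all AAV-V HFD arrays.

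Cyp2d9 and Cyp2d12, of which Cyp2d9 is a male-biased testosterone hydroxylase, were lower in AAV-V HFD livers. Cyp2d9 had signals of 4.72, 5.17 and 5.64 in AAV-V, 4.09, 4.65 and 4.57 in AAV-GP73 and 3.98, 4.17 and 2.72 in AAV-V HFD livers, the last group above background on 2 of 3 arrays, and fell by 1.55 on the log2 scale (SE 0.40, limma adjusted p = 0.00723). Cyp2d12 had 4.12, 4.29 and 4.37, then 3.61, 4.12 and 3.90, then 2.28, 3.35 and 3.11, and fell by 1.34 (SE 0.31, limma adjusted p = 0.00462). For both the AAV-V HFD arrays lay below every AAV-V array, and the calls held without any 1 array. They were lost with all-probe scaling (-0.60 and -0.39) and with spike-in scaling (-0.22 and -0.008). Normexp background correction and the methods' t-test after Benjamini-Hochberg adjustment lost both calls too. In AAV-GP73 their log2 differences were -0.74 and -0.38 and were not called, and between AAV-GP73 and AAV-V HFD they were 0.81 and 0.96 with limma adjusted p of 0.35 and 0.144, so that a difference between these 2 groups was not shown.

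Cyp2d26 was the called Cyp2d member in AAV-GP73. Its signal was 5.61, 4.97 and 5.75 in AAV-V, 6.69, 6.50 and 6.44 in AAV-GP73 and 5.86, 6.70 and 6.18 in AAV-V HFD livers, with no overlap of AAV-V and either group. The log2 difference was 1.10 ± 0.31 in AAV-GP73 (limma adjusted p = 0.00897) and 0.80 ± 0.31 in AAV-V HFD (limma adjusted p = 0.0445, under the fold of 2). A second detected probe gave 0.41 and -0.15, not called and of opposite sign in AAV-V HFD, and without AAV-V replicate 2 the first probe gave 0.87 in AAV-GP73, under the fold of 2. The AAV-GP73 call was also lost with quantile normalization, the authors' table, scaling by the median of detected probes and normexp background correction. It was lost too with the mean of the detected probes and relative to the median of all genes. Cyp2d10, Cyp2d11 and Cyp2d40 were measured on all 9 arrays and not called, with log2 differences from 0.04 to 0.87 in AAV-GP73 and from -0.71 to 0.14 in AAV-V HFD.

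Cyp2a5, the coumarin hydroxylase of mouse liver, fell in AAV-GP73, though the difference between AAV-GP73 and AAV-V HFD was not called. Its signal was 7.24, 7.44 and 7.70 in AAV-V, 5.66, 6.43 and 7.17 in AAV-GP73 and 7.20, 8.02 and 7.23 in AAV-V HFD livers. The AAV-GP73 arrays spread widely and lay below those of both other groups. The log2 difference was -1.04 ± 0.39 (limma adjusted p = 0.0347) from AAV-V, 0.02 ± 0.39 for AAV-V HFD, and -1.06 ± 0.39 (limma adjusted p = 0.19) between AAV-GP73 and AAV-V HFD. The call was lost without AAV-GP73 replicate 1 (-0.66) or replicate 2 (-1.04, limma adjusted p = 0.0781) and without AAV-V replicate 2 (-1.05, limma adjusted p = 0.0619) or replicate 3 (-0.92), and the value was -0.05 with all-probe and 0.65 with spike-in scaling. Cyp2a12, a bile acid hydroxylase, overlapped in all groups, at 6.39, 6.72 and 7.44 in AAV-V, 7.12, 7.35 and 7.38 in AAV-GP73 and 7.55, 7.08 and 5.38 in AAV-V HFD. Cyp2a4, a female-biased testosterone hydroxylase, was not above background on AAV-V arrays, and both other groups overlapped AAV-V. Against the lowest signal measurable there its mean was 1.13-fold higher in AAV-GP73 and 1.22-fold higher in AAV-V HFD livers. Neither was called (limma adjusted p = 0.139 and 0.107), so that a difference from AAV-V was not shown.

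Of the 8 Cyp3a members 3 were tested, none of them above background on all AAV-V arrays, so that the filter favoured a higher AAV-GP73 level and their shared direction is no finding about Cyp3a. Cyp3a41a, female-biased in mouse liver and measured here in males with a probe shared with Cyp3a41b, had signals of 4.12, 4.18 and 3.84 in AAV-V, 5.12, 5.84 and 6.10 in AAV-GP73 and 3.61, 2.94 and 0.67 in AAV-V HFD livers. It was above background on 2, 3 and 2 arrays of these groups, and no group overlapped another. The log2 difference was 1.64 ± 0.60 in AAV-GP73 (limma adjusted p = 0.0315) and -1.64 ± 0.60 in AAV-V HFD (limma adjusted p = 0.0356) against AAV-V, and 3.28 ± 0.60 between AAV-GP73 and AAV-V HFD (limma adjusted p = 0.0169), the largest difference of any tested member in this comparison. AAV-V HFD replicate 3 was far below the others: without it the last value was 2.41 and remained called, and the difference of AAV-V HFD from AAV-V was -0.77 and was not called.

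Cyp3a41a kept its direction throughout the alternatives tried, but not its call. The call between AAV-GP73 and AAV-V HFD was lost without AAV-GP73 replicate 2 (3.20, limma adjusted p = 0.0787) or replicate 3 (3.08, 0.0966), with quantile normalization (3.12, 0.0784), with the authors' table (3.39, 0.116) with normexp background correction (0.76, 0.0539), without the filter on dim probes (limma adjusted p = 0.0632) and by the methods' t-test after Benjamini-Hochberg adjustment. The AAV-GP73 call against AAV-V was lost without any 1 of the AAV-V arrays (1.68, 1.71 and 1.54, limma adjusted p = 0.0564, 0.056 and 0.0872) and without AAV-GP73 replicate 2 (1.57) or replicate 3 (1.44), with quantile normalization (1.63, 0.0507), the authors' table (1.76, 0.0657) and normexp (0.59), and relative to the median of all genes (1.05). The AAV-V HFD call was lost in 12 of 25 alternatives. These were each AAV-V array left out (-1.60, -1.57 and -1.74, limma adjusted p = 0.0726, 0.0809 and 0.0672), AAV-V HFD replicate 3 left out, all-probe scaling (-0.68), spike-in scaling (-0.30), quantile normalization (-1.49, 0.0725), the authors' table (-1.63, 0.0898), normexp (-0.17), the groups compared alone (limma adjusted p = 0.0637), and the methods' t-test before and after adjustment.

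Cyp3a25 and Cyp3a57, with the near-identical probes and promoters shown above, were above background on all AAV-GP73 and on no AAV-V arrays. Cyp3a25 had signals of 3.91, 3.67 and 4.12 in AAV-V, 4.88, 5.06 and 5.06 in AAV-GP73 and 4.66, 4.08 and 4.16 in AAV-V HFD livers, and was at least 2.05-fold higher in AAV-GP73 than in AAV-V (limma adjusted p = 0.00415), where it was above background on 0 arrays. Without AAV-V replicate 2 its fitted log2 difference fell from 1.10 to 0.98, under the fold of 2. Cyp3a57 had 2.14, 1.68 and 2.38, then 3.69, 3.49 and 3.26, then 3.1, 2.39 and 2.30. It was called in AAV-GP73 (limma adjusted p = 0.00213), but all its AAV-GP73 signals were under the lowest signal measurable on AAV-V arrays, and no change or fold is read from it. In AAV-V HFD livers neither was called against AAV-V or AAV-GP73, and for both all AAV-GP73 arrays lay above all AAV-V HFD arrays. The other 5 Cyp3a members were above background on at most 2 arrays.

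Cyp2f2, which activates naphthalene and marks hepatocytes around the portal vein, was the second member called between AAV-GP73 and AAV-V HFD. Its signal was 5.31, 5.11 and 5.26 in AAV-V, 5.94, 5.87 and 6.06 in AAV-GP73 and 4.88, 4.58 and 4.80 in AAV-V HFD livers, all above background. No group overlapped another, with AAV-GP73 highest and AAV-V HFD lowest. The log2 difference between AAV-GP73 and AAV-V HFD was 1.20 ± 0.24 (limma adjusted p = 0.0266). Against AAV-V it was 0.73 ± 0.24 in AAV-GP73 (limma adjusted p = 0.021, under the fold of 2) and -0.47 ± 0.24 in AAV-V HFD (limma adjusted p = 0.117). The call between the groups was lost without any 1 of the AAV-GP73 arrays (1.22, 1.25 and 1.15, limma adjusted p = 0.0653, 0.0995 and 0.15), without AAV-V HFD replicate 1 (1.27, 0.07) or replicate 2 (1.12, 0.0749), with quantile normalization (1.09, 0.0956), the authors' table (1.21, 0.11) and normexp background correction (0.47, 0.0189, under the fold of 2), without the filter on dim probes (limma adjusted p = 0.135) and by the methods' t-test after Benjamini-Hochberg adjustment.

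Cyp2r1, a vitamin D hydroxylase, was lower in both groups, with signals of 9.63, 10.08 and 10.44 in AAV-V, 8.16, 8.64 and 8.17 in AAV-GP73 and 8.68, 8.35 and 8.88 in AAV-V HFD livers. All AAV-V arrays lay above all others. It fell by 1.73 (SE 0.30, limma adjusted p = 0.000526) and by 1.42 (SE 0.30, limma adjusted p = 0.00263) on the log2 scale, and both calls held without any 1 array. With all-probe scaling the differences were -0.74 (limma adjusted p = 0.0471, under the fold of 2) and -0.46, and with spike-in scaling -0.04 and -0.08. Cyp2u1, a long-chain fatty acid hydroxylase, was measured on all 9 arrays with log2 differences of -0.30 and -0.74 and was not called. Its probe lists no RefSeq transcript, and the Cyp2u1 probe that does was above background on 0 arrays. Cyp2j5, an epoxygenase, overlapped in all groups.

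Cyp1a2, which oxidises caffeine and arylamines, was above background on the 3 AAV-GP73 arrays alone, at 2.98, 3.63 and 3.26, beside 2.01, 2.53 and 1.75 in AAV-V HFD and 3.55, 3.88 and 4.23 in AAV-V livers. Between AAV-GP73 and AAV-V HFD livers it was not called (limma adjusted p = 0.0697), with a bound of at least 1.77-fold higher in AAV-GP73. Cyp1a2 passed the filter through AAV-GP73 alone, which favoured this direction, so that no difference between these groups is read. Its call as lower in AAV-V HFD than in AAV-V compared signals that were not above background in either group, and no change is read from it.

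The genes that supply or control the enzymes were fitted under the scaling by detected probes alone. Against AAV-V, 33.2% of all genes tested rose and 19.4% fell in AAV-GP73 livers, with a median log2 difference of 0.60. On the high-fat diet 24.8% rose and 18.2% fell, with a median of 0.37. The lists are short and their counts and median log2 differences, given below in that order of groups, are descriptions. These medians include genes that were not above background on all AAV-V arrays. Over all genes well above background on every array of both compared groups the medians were -0.22 and -0.41. Of 6 redox partners 4 were tested, of which 2 rose from AAV-V to AAV-GP73 and 2 from AAV-V to AAV-V HFD livers, and none fell (medians 1.03 and 0.75). Cyb5a, cytochrome b5, stood at 7.42, 7.22 and 7.56 in AAV-V, 9.31, 9.82 and 10.28 in AAV-GP73 and 9.91, 10.25 and 9.72 in AAV-V HFD livers (log2 differences 2.41 ± 0.30 and 2.56 ± 0.30, limma adjusted p = 0.000115 and 0.000232), with AAV-V below all other arrays. Por, the reductase, overlapped between AAV-V and both groups (-0.28 and 0.12, limma adjusted p = 0.326 and 0.706).

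Of 11 genes of heme synthesis and breakdown 9 were tested, and in each group against AAV-V 7 were called higher and 1, Ppox, lower (medians 1.94 and 1.77). Ppox alone of these 9 was above background on all AAV-V arrays. Alas1, the rate-limiting enzyme of hepatic heme synthesis, stood at 4.09, 3.94 and 5.69 in AAV-V, 7.01, 7.85 and 7.17 in AAV-GP73 and 7.86, 7.84 and 7.98 in AAV-V HFD livers (2.77, limma adjusted p = 0.000285, and 3.32, limma adjusted p = 0.000326). Ppox, the protoporphyrinogen oxidase, stood at 7.01, 7.19 and 7.17, then 4.30, 4.21 and 4.28, then 5.16, 3.95 and 5.11, and fell by 2.86 and 2.38 (limma adjusted p = 8.32e-05 and 0.000385). Beside these, the summed signal of 6 erythroid markers, all of them above background on some array, was 8.57 to 9.85 in AAV-V, 11.7 to 14.0 in AAV-GP73 and 9.27 to 10.1 in AAV-V HFD livers on the log2 scale, and its part in the heme genes and in the members was not tested. The 8 cholangiocyte markers, of which 0 were tested and 5 were above background on no array, summed to 5.02 to 5.29, 3.50 to 4.30 and 3.16 to 4.24 in the same order. Without the filter on dim probes the median log2 difference of all genes from AAV-V was -1.60 and -1.40. Sums over undetected probes thus lie higher on AAV-V arrays, and no change of these markers is read. The 8 stellate cell markers, of which 3 were tested, summed to 7.29 to 8.14, 7.42 to 7.68 and 6.43 to 7.12. The 8 Kupffer cell and macrophage markers, of which Timd4 alone was above background on no array, summed to 7.16 to 7.33, 7.47 to 7.92 and 7.65 to 8.06, with AAV-V below both groups. Of these, 4 were tested and Clec4f was called higher in AAV-GP73, at 4.33, 4.00 and 3.26 against 2.97, 3.15 and 2.47 on AAV-V arrays (limma adjusted p = 0.0206). These AAV-V signals, and the AAV-GP73 signal of 3.26, lay under the lowest signal well above background on AAV-V arrays (3.77 to 3.94). Clec4f was thus not measured above background in AAV-V, and no fold is read. Of the 8 endothelial markers, which summed to 5.14 to 5.44, 5.03 to 5.55 and 3.88 to 5.80, Clec4g was the 1 tested, and was called higher in AAV-GP73, at 4.61, 3.94 and 4.78 against 1.78, 1.86 and 1.91 on AAV-V arrays, none of which was above background (limma adjusted p = 0.0017). The part of these cells in the members' values was not tested.

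Among 11 receptors and partners that act on CYP genes 5 were tested, of which 4 (Rxra, Hnf4a, Ppara and Nr1h4) were called higher in both groups against AAV-V (medians 1.62 and 1.42). Rxra and Hnf4a were measured on all 9 arrays, but Ppara and Nr1h4 were above background on 0 AAV-V arrays. Ppara was at least 2.16-fold and 1.81-fold higher, overlapping AAV-V in AAV-V HFD, and Nr1h4 at least 2.01-fold and 1.88-fold. Hnf4a, HNF4A, stood at 6.16, 5.25 and 5.35 in AAV-V, 7.78, 7.91 and 8.45 in AAV-GP73 and 6.71, 6.96 and 7.29 in AAV-V HFD livers (2.46, limma adjusted p = 0.000143, and 1.40, limma adjusted p = 0.00444). Nr1i3, CAR, stood at 5.60, 6.06 and 7.25, then 5.19, 5.08 and 5.87, then 5.52, 5.21 and 5.51, with differences of -0.93 and -0.89 that were not called (limma adjusted p = 0.0619 and 0.0768). Nr1i2, PXR, and Arnt, the partner of AhR, were above background on 0 arrays, and Ahr on 1 AAV-GP73 and 1 AAV-V HFD array.

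Of the 12 CYP targets of CAR and PXR listed 5 were tested, of which 3 rose and 1 fell in AAV-GP73, and 2 rose and 1 fell in AAV-V HFD (medians 1.10 and 0.91). The lower one was Cyp2c29 in both, although it is listed beside Cyp2c50 and Cyp2c54. Cyp2c29 alone of these 5 was above background on all AAV-V arrays. Of 9 female-biased members on the array 4 were tested, of which 1 (Cyp3a41a) rose in AAV-GP73 livers. For AAV-V HFD, Cyp3a41a fell and Cyp2c40 was called without being above background. Of 8 growth hormone regulators on the array 5 were tested and 1, Trim24, was called higher in each group against AAV-V. Trim24 was above background on 0 AAV-V arrays and was at least 1.10-fold higher in AAV-GP73. In AAV-V HFD its mean of 3.65 lay under the lowest signal measurable on AAV-V arrays, and no change or fold is read. Stat5b was not called (1.09, limma adjusted p = 0.0736, and -0.05).

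The pericentral list of 11 genes, of which 10 were tested, held 5 genes that rose in AAV-GP73, 3 that fell (Cyp2c29, Cyp2a5 and Slc1a2) and 2 that were not called. For AAV-V HFD it held 5 that rose and 2 called lower, of which Cyp1a2 was not above background (medians 1.27 and 1.15). Over the 5 genes well above background on every array of both compared groups the medians were -1.04 and 0.02. Of the genes that rose, Cyp2c50, Oat and Glul were above background on 0, 1 and 2 AAV-V arrays. Glul, the glutamine synthetase of the innermost ring around the central vein, stood at 4.20, 4.80 and 3.91 in AAV-V, 6.08, 6.10 and 6.74 in AAV-GP73 and 5.84, 7.0 and 4.69 in AAV-V HFD livers (2.00, limma adjusted p = 0.0044, and 1.54, limma adjusted p = 0.0209). Cyp2e1 and Cyp2c50 were higher while Cyp2c29 and Cyp2a5 were lower in the same AAV-GP73 livers. Of the 8 periportal genes, all tested, 3 rose and 1 fell in AAV-GP73 against AAV-V, near the share of all genes, and 1 rose and 1 fell in AAV-V HFD (medians 1.44 and 0.17). Cyp2f2 was the 1 called between AAV-GP73 and AAV-V HFD livers. The 8 log2 differences of that comparison lay between 0.44 and 1.65 (median 1.20), and those of the 10 general hepatocyte markers were likewise all above 0, between 0.22 and 1.26 (median 0.50), so that the shared sign is not particular to the periportal genes.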

How the data were processed

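Liver RNA of 9 samples was labelled with Cy3 and hybridised to 60-base Agilent arrays, 1 array each. The deposited intensity values are Feature Extraction output per spot, background-subtracted and detrended within the array (version 12.0.3.1 per the file headers, 10.7 in the submitters' processing notes), with no scaling between arrays. The authors also deposited log2 values for 56605 probes, normalized between arrays by a method not given in the sources used here, with medians of 0.799 to 0.801 per array. The limma package is named in the processing notes. These values were used as an alternative.

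Control spots and spots marked as outliers were left out, and log2 signals were scaled by the 75th percentile over the 2667 probes well above background on all 9 arrays. The brightest probe stood for a gene, and 5761 genes well above background on every array of 1 or more groups were fitted together in limma 3.58.1 (R 4.3.3), with Benjamini-Hochberg adjustment. A gene was called at a fold of 2 and an adjusted p under 0.05. With 3 arrays against 3, an exact permutation test of a single value cannot go below p = 0.1, so none was used. Where 1 group had no array above background, "at least N-fold" sets the bright group's mean against the lowest detected signal, or the probe's own where higher. Sequences were read with Python 3.11.15 and pandas 2.3.3. Probe positions are those of the array design on mm9, and exons were not assigned since no genome of that build was used here.

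Named with full values were the 5 largest called rises and falls per comparison, textbook members, members detected in 1 group only and members whose probes disagree. The members and gene lists were chosen with earlier results of these data known. Same-numbered arrays of different groups correlated at -0.12 to 0.17 in their deviations and were not treated as pairs. Alternatives covered scaling, background correction, the authors' table, the detection filter, the probe chosen, the variance model, the test, the replicate number and each array left out. The fit was tested on simulated data. Precision is limited by the 3 arrays of each group. No 2 arrays correlated above 0.987 over detected probes.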

Additional observations from a re-analysis of the deposited data

Results flagged for a closer look

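Cyp2f2 and Cyp3a41a were picked out because GP73 and HFD, each measured against the same AAV-V arrays, gave differences that themselves differed in limma. For Cyp2f2 AAV-GP73 exceeded AAV-V HFD by 1.20 on the log2 scale, and for Cyp3a41a by 3.28, with every AAV-GP73 array above every AAV-V HFD array in both cases. AAV-V HFD replicate 3 (0.67, not well above background) widened the Cyp3a41a difference, which was 2.41 without it. Cyp3a41a was above background on 2 AAV-V, 3 AAV-GP73 and 2 AAV-V HFD arrays and was thus tested through AAV-GP73 alone. The filter favoured a higher AAV-GP73 level for it, which its p value does not take into account. Both calls were lost with quantile normalization (limma adjusted p = 0.0956 for Cyp2f2 and 0.0784 for Cyp3a41a) and with the authors' table (0.11 and 0.116).

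A Cyp2j9 probe that was not the brightest of its gene, and so entered no comparison, was well above background on AAV-GP73 replicate 2 alone, at a scaled log2 signal of 4.84.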

How the results depend on the processing

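The members called numbered 10, 10 and 2 in AAV-GP73 against AAV-V, AAV-V HFD against AAV-V and AAV-GP73 against AAV-V HFD. Scaling by all probes gave 21 in the first, and spike-in scaling gave 25, 18 and 5. Normexp background correction gave 2, 1 and 0 (7 members at an unadjusted p under 0.05 in limma in the last). Without the filter on dim probes the counts were 33, 31 and 0 (13 unadjusted) and with only the 13 members measured on all 9 arrays 5, 4 and 1. Quantile normalization and the authors' table each left 0 calls between AAV-GP73 and AAV-V HFD (7 and 6 unadjusted). The methods' t-test gave 5 in AAV-V HFD against AAV-V and 4 between AAV-GP73 and AAV-V HFD, and after Benjamini-Hochberg adjustment 3 and 0 (8 members at an unadjusted p under 0.05 by that test, at any fold). Relative to the median of all genes 6 were called in AAV-GP73 against AAV-V. With the replicate number as a block, 10, 9 and 1 were called, Cyp2f2 being the one lost between AAV-GP73 and AAV-V HFD (adjusted p = 0.0515). Leaving out 1 array at a time gave 8 to 10, 6 to 10 and 0 to 2. Under spike-in scaling the difference from AAV-V turned to 0.65 for Cyp2a5 and 0.34 for Cyp2c29 in AAV-GP73, and to 0.036 for Cyp2c29 in AAV-V HFD. Of 20 called member values 17 never changed direction, and 0 kept their call under every alternative. Of the 67 others 36 changed sign under some alternative. The cause of these changes was not tested. The dim AAV-V arrays set what could be measured.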
